A study of Mus musculus
Rattus norvegicus and Rattus norvegicus and Mus musculus with 18 samples.

Results

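Rat host genes were compared between the lung and the core of mammary tumors that mouse 4T1 cells had formed in rats. 4T1 is a mouse mammary carcinoma line known for spreading to the lung, so the cancer cells of these samples carry mouse RNA and the tissue around them carries rat RNA. The cells had been placed in the mammary fat pad of SRG rats, known as Sprague Dawley rats without functional Rag2 and Il2rg and hence without mature T, B and NK cells, and tissue was taken on day 27. Every sample of both groups is labelled wildtype and untreated, and the labels give no age and no line other than SRG. The tumor was cut open and its necrotic core was separated from its rim before freezing, while the lung was taken whole. Of the 18 poly(A) RNA-seq libraries of the series, 10 were used: 5 of tumor core (Rat3867, Rat3869, Rat3875, Rat3876 and Rat3877) and 5 labelled lung (Rat3789, Rat3869, Rat3875, Rat3876 and Rat3877). All rat genes with a normalized signal of at least 1 CPM (reads of a gene per 1000000 rat reads after scaling) in at least 5 of these libraries were taken, which left 13579 of the 14876 deposited rat genes. Because 4 rats gave both tissues, Rat3789 gave no core and Rat3867 gave no lung, the groups were compared unpaired.

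In the healthy lung, flat type I cells of the alveolus carry out gas exchange and cuboidal type II cells secrete surfactant, and both lie against a dense capillary bed. Alveolar and interstitial macrophages reside there, and the vessels hold a pool of marginated neutrophils. The host part of a transplanted tumor is made of blood vessels, fibroblasts with their matrix, and myeloid cells recruited from the blood. Cells in poorly perfused tissue are known to switch on targets of the hypoxia-inducible factors, among them glucose transporters and glycolytic enzymes. In bulk RNA, fewer cells of a type and less RNA per cell cannot be told apart, and this holds for each result here.

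The library labelled lung of Rat3789 did not carry the defining genes of lung. Sftpc, the surfactant protein of type II cells, read 10.6, 8.04, 28.5, 53.3 and 10.2 CPM in the cores, 5676, 4202, 3126 and 5593 in the 4 other lungs and 1.88 in the Rat3789 library. The Rat3789 library thus lay below each core, while the other 4 lungs lay far above them. Its levels across the tested rat genes correlated (Spearman, across genes) at 0.955 with the mean of the tumor rims, at 0.943 with the cores and at 0.914 with the mean of the other lungs. Mesothelial genes were present in it: Lrrn4, a gene of the lung's outer lining, read 0.607, 0.158, 0.477, 1.08 and 0.126 CPM in the cores, 51.8, 29.6, 52.6 and 34.3 in the 4 other lungs and 25 in the Rat3789 library. Results were therefore computed with all 5 lungs and with the 4 others. Values by library are listed in the order Rat3867, Rat3869, Rat3875, Rat3876 and Rat3877 for the cores and Rat3869, Rat3875, Rat3876 and Rat3877 for the other lungs.

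Libraries held 3146720 to 4221679 rat reads in the cores and 6976025 to 10015352 in the 5 lungs, so low genes are measured more finely in lung. Rat genes took 14.3% ± 1.51 (SD, n = 5) of all assigned reads in the cores and 29.4% ± 4.85 (SD, n = 5) in the lungs, a difference of 15.1 percentage points (exact two-sided permutation test, p = 0.00794, the smallest that 252 regroupings allow). Mouse genes took the other reads, 15346400 to 26669410 in the 5 lungs, so each lung library held more mouse than rat reads. The lungs are thus not healthy lung, and the series holds no lung of a rat without 4T1 cells. Whether the differences below hold for healthy lung was not tested. A pellet of 4T1 cells alone gave 0.718% of its reads to rat genes. Carried over by each library's mouse reads, that rate would account for 3.73% to 5.01% of the rat reads of a core and 1.29% to 2.20% of those of a lung. It is called the pellet rate below and is given beside the values of a gene where it reaches 10% of the core reads. For Lrrn4 above it was 61.1%. The mitochondrially encoded share of rat reads was 3.49% in the cores and 2.72% in the lungs (exact two-sided permutation test, p = 0.00794), and its part in the gene results was not tested.

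With all 5 lungs, limma called 4452 of 13579 genes (32.8%) at an adjusted p under 0.05, of which 2428 (17.9%) were higher in lung and 2024 (14.9%) lower. Without Rat3789, 5098 genes (37.5%) were called, 2778 higher (20.5%) and 2320 lower (17.1%). The same direction was called in both for 2287 higher and 1919 lower genes, and 0 genes were called in opposite directions. The median log2 difference over all tested genes was 0.03 with 5 lungs and 0.01 with 4. These shares and medians are the background for the counts of each list. Under scaling to total reads the median difference was 0.14 with 5 lungs, and the called genes split into 3010 higher and 1454 lower. Differences are log2 of lung minus core with the standard error (SE), and the p-values are limma's with Benjamini-Hochberg adjustment over all tested genes.

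**Figure D1:**
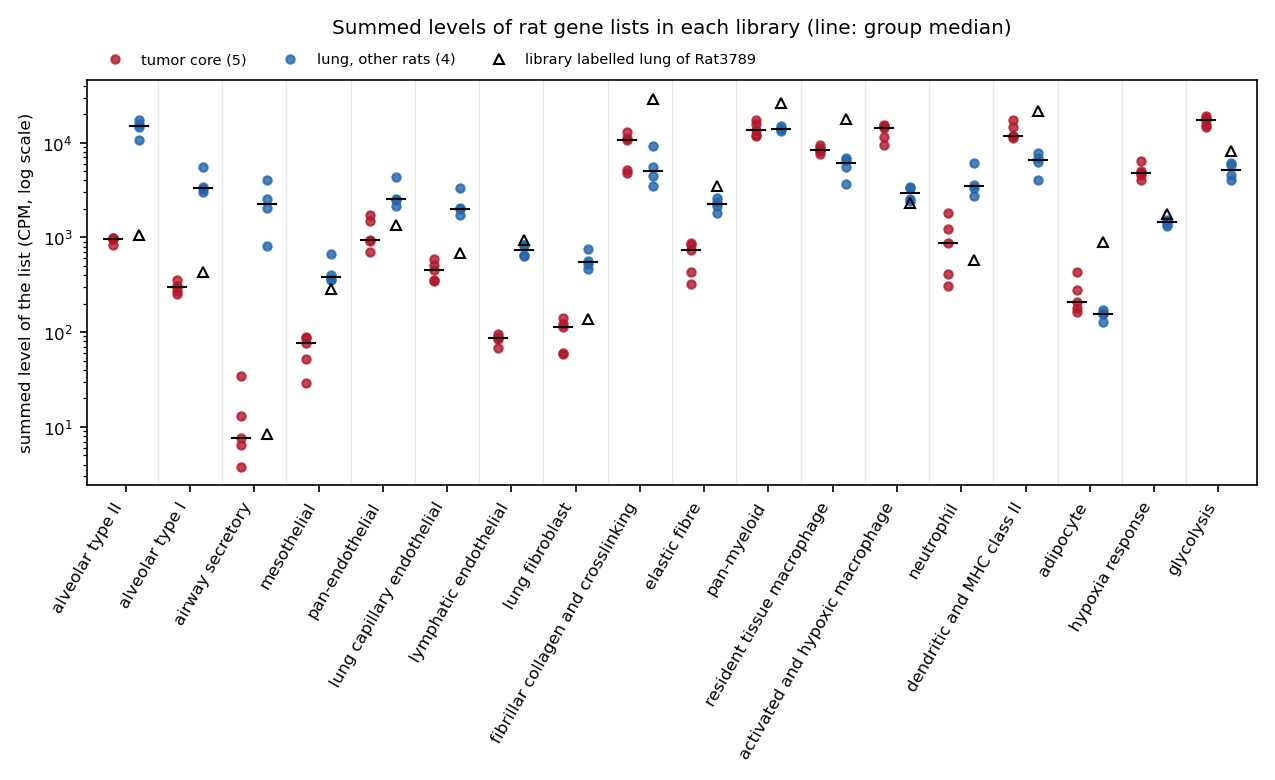
Summed CPM (log scale) of the listed rat genes in each library, with 5 cores in red, 4 lungs in blue, the library labelled lung of Rat3789 as an open triangle and lines at the group medians. The triangle lies near the cores in the alveolar and airway lists and near the other lungs in the mesothelial list, while the activated macrophage list summed to 9359 to 15411 CPM in the cores and 2445 to 3369 in the 4 lungs.

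Genes of the lung epithelium separated the other 4 lungs from every core. The alveolar type II list summed to 835 to 998 CPM in the cores, 10570.4 to 17539 in the 4 lungs and 1069 in the Rat3789 library. Of its 12 tested members 8 were higher and 0 lower with 5 lungs (median 5.57), and 11 higher and 1 lower with 4 (median 7.76). Sftpb, which spreads surfactant lipid, differed by 6.10 ± 1.71 with 5 lungs (SE, limma adjusted p = 0.019) and 8.06 ± 0.48 with 4 (adjusted p = 7.04e-07). Sftpd, a collectin that binds microbes, read 2.79, 0.158, 2.07, 4.48 and 1.14 CPM in the cores, 954, 774, 603 and 642 in the 4 other lungs and 2.45 in the Rat3789 library. In Sftpc, Sftpb, Sftpa1 and Sftpd the pellet rate would account for 32.8%, 18.6%, 34.3% and 21% of the few reads in the cores. All 10 alveolar type I genes were higher with 5 lungs and with 4, with medians of 4.86 and 5.91. Limma-voom with 5 lungs called 2 type II and 4 type I genes higher. Leaving out the genes with over 10% of their reads at the pellet rate, and so testing fewer members, gave 2 and 5 with 5 lungs and 4 and 5 with 4. Among the type I genes, the receptor Ager differed by 5.31 ± 1.18 with 5 lungs (SE, limma adjusted p = 0.00643) and 6.68 ± 0.29 with 4 (adjusted p = 6.30e-08), with 15.6% of its core reads at the pellet rate. Hopx, a homeodomain gene of type I cells that other cells also express, ran from 78.3 to 129 CPM in the cores and from 389 to 794 in the 4 other lungs, with 159 in the Rat3789 library.

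Airway and mesothelial genes showed the same direction. Of 5 airway secretory genes 4 were higher with 5 lungs and 5 with 4, led by Scgb1a1, the club cell secretoglobin, at 1.82, 4.25, 11.6, 26.7 and 4.67 CPM in the cores, 2319, 2961, 740.4 and 1957 in the 4 other lungs and 1.54 in the Rat3789 library. The Rat3789 library lay below each core in that gene, and 29.8% of the core reads were at the pellet rate. Ciliated cell genes were called higher in 2 of 5 cases with 5 lungs and 4 with 4. All 7 genes of the mesothelium, the lining of the pleura, were higher in both comparisons, with medians of 4.61 and 4.75. Wt1, a transcription factor of that lining, ran from 0.126 to 1.73 CPM in the cores and from 7.41 to 33.9 in the 4 other lungs, with 34.3 in the Rat3789 library. Wt1 differed by 4.75 ± 0.72 with 4 lungs (SE, limma adjusted p = 0.000423, against 0.000545 with 5). Keratins and adhesion genes that lung epithelium shares with the mammary gland were higher with them: 2 of 6 tested members of the mammary epithelial list with 5 lungs and 5 with 4. Krt8 ran from 3.55 to 18.4 CPM in the cores and from 233 to 316 in the 4 other lungs, with 27.8 in the Rat3789 library, with a pellet rate of 91.7% of the core reads.

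Across all called rat genes of at least 2 mean log2 CPM whose groups did not overlap, the 10 largest increases with 5 lungs were Akr1c15, Fgg, Ces1d, Gpc3, Aldh1a1, Gja5, Fgfr3, C7, Cyp4b1 and Evpl. Fgg encodes the fibrinogen gamma chain and Gja5 the gap junction protein of arterial endothelium. Aldh1a1 makes retinoic acid, Gpc3 is a glypican, and Cyp4b1 is a lung monooxygenase. Sftpd, left out there because its groups overlapped, differed by more, 7.43 ± 1.57 with 5 lungs (SE, limma adjusted p = 0.00475). Among the 10 genes Akr1c15 had the largest difference, 6.91 ± 0.80 with 5 lungs (SE, limma adjusted p = 0.000195) and 7.51 ± 0.66 with 4 (adjusted p = 9.62e-06). It ran from 0.126 to 2.38 CPM in the cores and from 77.1 to 180.4 in the 4 other lungs, with 13.3 in the Rat3789 library, with 61.1% of the core reads at the pellet rate. Fgfr3, a fibroblast growth factor receptor, ran from 0.463 to 1.09 CPM in the cores and from 75.4 to 125 in the 4 other lungs, with 4.49 in the Rat3789 library, with a pellet rate of 0% in the cores. None of the 10 genes exceeded 12.2 CPM in a core. Without Rat3789 the 10 largest were Sftpd, Defb4, Ly6i, Cldn18, Sftpa1, Scgb1a1, Pigr, Sftpc, Sftpb and Slc34a2. Cldn18, a tight junction claudin of the alveolus, then differed by 8.34 ± 0.40 (SE, limma adjusted p = 1.34e-07), with 31.9% of its core reads at the pellet rate.

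Endothelial genes were higher in lung, with the larger median in the list of the lung capillary bed. Of 17 pan-endothelial genes 12 were higher and 0 lower with 5 lungs, at a median of 1.08. With 4 lungs 14 were higher, at a median of 1.35. The list summed to 701 to 1716 CPM in the cores, 2169.6 to 4371 in the 4 lungs and 1352 in the Rat3789 library. Lung capillary genes were higher in 12 of 15 cases and lower in 1 in both comparisons, with medians of 2.73 and 3.25. Limma-voom with 5 lungs called 6 lung capillary genes higher. The difference between the medians of these lists was not tested. Pecam1 and Car4 were not analysed here.

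The general endothelial genes were spread unevenly over the cores. Cdh5, the cadherin of endothelial junctions, read 278, 101, 57.1, 138 and 309.9 CPM in the cores, 151, 215, 298 and 394 in the 4 other lungs and 119 in the Rat3789 library. The cores of Rat3867 and Rat3877 reached the lung range and the groups overlapped, and Cdh5 differed by 0.54 ± 0.47 with 5 lungs (SE, limma adjusted p = 0.404) and 0.76 ± 0.46 with 4 (adjusted p = 0.223). With the rat as a block, which leaves the 4 rats with both tissues, the Cdh5 difference was 0.99 (limma adjusted p = 0.0132). Tie1, an orphan receptor of endothelium, differed by 0.95 ± 0.29 with 5 lungs (SE, limma adjusted p = 0.0286) and 0.87 ± 0.30 with 4 (adjusted p = 0.0422). Tek, the angiopoietin receptor, read 26.8, 24.7, 20.8, 32 and 40.0 CPM in the cores, 145, 132, 149 and 340.1 in the 4 other lungs and 37.4 in the Rat3789 library. Each of the 4 lungs exceeded each core in Tek, the Rat3789 library lay within the core range, and the difference was 2.20 ± 0.46 with 5 lungs (SE, limma adjusted p = 0.0044) and 2.65 ± 0.27 with 4 (adjusted p = 2.81e-05). Emcn, a sialomucin of capillaries and veins, differed by 2.45 ± 0.25 with 5 lungs (SE, limma adjusted p = 0.00010) and 2.66 ± 0.19 with 4 (adjusted p = 2.31e-06), with 16.7% of its core reads at the pellet rate, and its groups did not overlap. Eng, a coreceptor for BMP ligands, differed by 1.42 ± 0.22 with 5 lungs (SE, limma adjusted p = 0.000931) and 1.51 ± 0.22 with 4 (adjusted p = 0.00027). Sox17, an arterial transcription factor, differed by 1.71 ± 0.34 with 5 lungs (SE, limma adjusted p = 0.00327) and 2.01 ± 0.24 with 4 (adjusted p = 8.53e-05).

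Several genes tied to lung capillaries differed strongly. Ace, the angiotensin-converting enzyme of the lung capillary surface, read 7.89, 10.6, 10.3, 9.11 and 7.95 CPM in the cores, 412, 516, 305 and 822 in the 4 other lungs and 111 in the Rat3789 library. All lungs lay above all cores, the Rat3789 library lowest among the lungs, and Ace differed by 5.30 ± 0.42 with 5 lungs (SE, limma adjusted p = 3.03e-05) and 5.72 ± 0.24 with 4 (adjusted p = 5.87e-08), with 21% of its core reads at the pellet rate. Sema3c, a secreted semaphorin, read 39, 21.6, 24.6, 30.4 and 39 CPM in the cores, 412, 407, 495 and 476 in the 4 other lungs and 43.1 in the Rat3789 library. There the Rat3789 library was just above the highest core, and the difference was 3.22 ± 0.59 with 5 lungs (SE, limma adjusted p = 0.00239) and 3.89 ± 0.18 with 4 (adjusted p = 9.76e-08). Aplnr, the apelin receptor, differed by 2.69 ± 0.29 with 5 lungs (SE, limma adjusted p = 0.000131) and 2.70 ± 0.31 with 4 (adjusted p = 6.01e-05). Ednrb, the endothelin B receptor of a lung capillary subtype, was not called with 5 lungs or 4 (limma adjusted p = 0.0554 and 0.0608) and was called with the rat as a block (0.85, limma adjusted p = 0.0125). Gpihbp1, which anchors lipoprotein lipase on capillaries, went the other way at 35.1, 40.2, 21.1, 27.3 and 56.6 CPM in the cores, 11.5, 27.1, 11.6 and 27.3 in the 4 other lungs and 18.8 in the Rat3789 library. Its groups overlapped and its difference of -0.93 ± 0.32 with 5 lungs (SE, limma adjusted p = 0.0465) and -0.94 ± 0.34 with 4 (adjusted p = 0.0492) passed the threshold narrowly. Under scaling to total reads the Gpihbp1 difference was -0.82 (limma adjusted p = 0.0731).

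**Figure D2:**
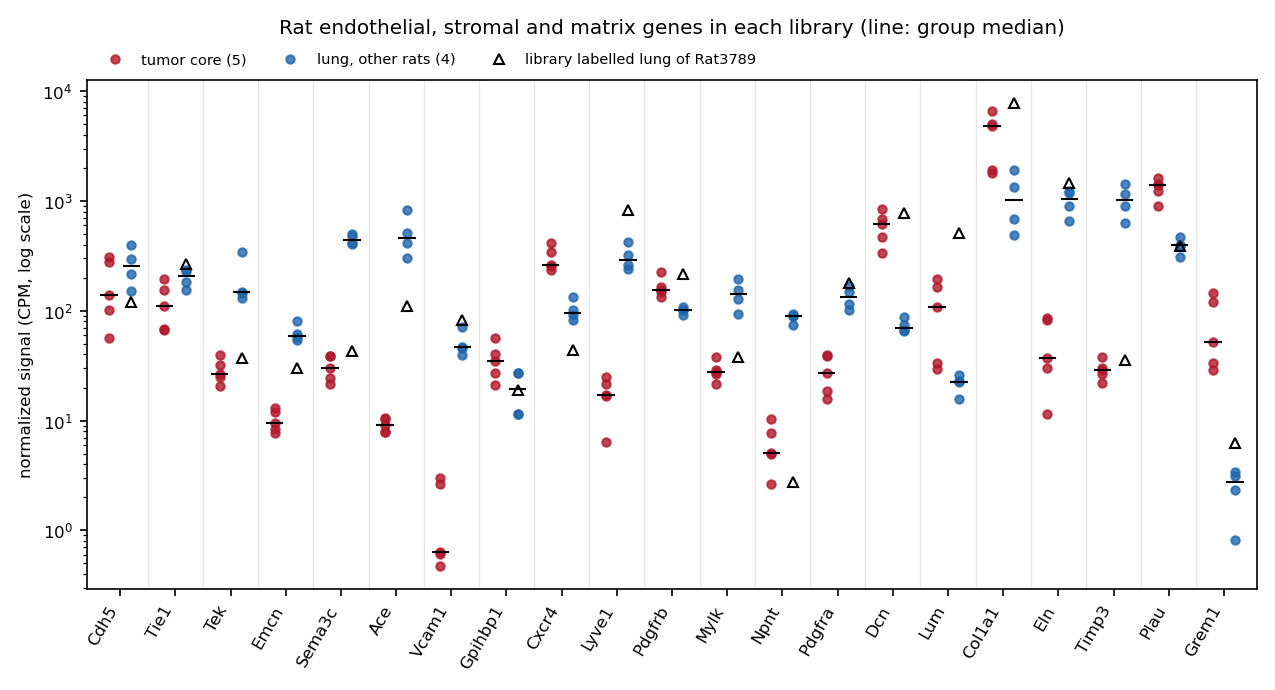
Normalized signal (CPM, log scale) of rat endothelial, stromal and matrix genes, with 5 cores in red, 4 lungs in blue, the library labelled lung of Rat3789 as an open triangle and lines at the group medians. Ace, Vcam1, Lyve1 and Eln are higher in every lung than in every core, Plau and Grem1 lower, and Cdh5 overlaps.

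Genes of activated and sprouting endothelium split. Of 12 tested genes 6 were higher and 2 lower in both comparisons, with medians of 0.66 and 0.73. Adhesion molecules that capture leukocytes were higher in lung. Vcam1 read 0.607, 2.99, 0.477, 2.63 and 0.631 CPM in the cores, 70.9, 46.2, 39.3 and 46.7 in the 4 other lungs and 81.6 in the Rat3789 library, and the pellet rate would account for all of its core reads. Selp, stored P-selectin, differed by 2.55 ± 0.27 with 5 lungs (SE, limma adjusted p = 0.000121) and 2.51 ± 0.29 with 4 (adjusted p = 6.94e-05), with 17.2% of its core reads at the pellet rate. Icam1, the ligand of leukocyte integrins, differed by 1.38 ± 0.44 with 5 lungs (SE, limma adjusted p = 0.0316) and 1.87 ± 0.16 with 4 (adjusted p = 6.65e-06). The chemokine receptor Cxcr4, made by tip cells and by leukocytes, was lower at 342, 254, 261, 236 and 415 CPM in the cores, 83.1, 102, 134 and 90.6 in the 4 other lungs and 43.8 in the Rat3789 library. Every lung lay below every core and the difference was -1.79 ± 0.27 with 5 lungs (SE, limma adjusted p = 0.000753) and -1.55 ± 0.19 with 4 (adjusted p = 8.25e-05). Esm1, Angpt2 and Apln, which mark tip cells, were not called with 5 lungs (limma adjusted p = 0.535, 0.567 and 0.496) or 4 (0.455, 0.473 and 0.146 by limma), and Apln was called higher with the rat as a block (0.90, limma adjusted p = 0.0184). Angpt2 ran from 17 to 109 CPM in the cores and from 19.8 to 45.8 in the 4 other lungs, with 41.3 in the Rat3789 library.

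Lymphatic endothelial genes were called higher in 5 of 7 cases with 5 lungs and with 4 (medians 3.33 and 3.78). The 5 include Pdpn, which is also counted in the alveolar type I list. Lyve1, a hyaluronan receptor that lymphatic vessels and some macrophages carry, read 21.7, 25.1, 16.7, 6.33 and 17 CPM in the cores, 263, 426, 241 and 322 in the 4 other lungs and 823 in the Rat3789 library. The Rat3789 library was the highest and the groups did not overlap (4.56 ± 0.40 with 5 lungs, limma adjusted p = 5.37e-05, and 4.27 ± 0.34 with 4, adjusted p = 5.18e-06), with 13.1% of the core reads at the pellet rate. Ccl21, the lymphatic chemokine for Ccr7, ran from 0.159 to 1.39 CPM in the cores and from 28.7 to 52.8 in the 4 other lungs, with 8.13 in the Rat3789 library, and the pellet rate would account for all of its core reads. Prox1, the lymphatic transcription factor, and Flt4, the receptor for Vegfc, were not called with 5 lungs (limma adjusted p = 0.0575 and 0.937) or 4 (0.0582 and 0.592 by limma). Under scaling to total reads the adjusted p of Prox1 was 0.0478 and 0.0452.

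Mural cell genes showed few differences until Rat3789 was left out. Of 15 pericyte and smooth muscle genes 2 (Mylk and Notch3) were higher and 1 (Acta2) lower with 5 lungs, and 5 higher and 3 lower with 4. Over all tested genes 17.9% were higher and 14.9% lower with 5 lungs, and 20.5% and 17.1% with 4. Of the genes called higher, values are given here for Mylk only. Pdgfrb, the receptor that pericytes need, read 149, 155, 228, 166 and 133 CPM in the cores, 103, 109, 92.4 and 102 in the 4 other lungs and 215 in the Rat3789 library. The 4 lungs lay below every core and the Rat3789 library within the core range, and Pdgfrb differed by -0.47 ± 0.23 with 5 lungs (SE, limma adjusted p = 0.133) and -0.69 ± 0.14 with 4 (adjusted p = 0.00295). Rgs5, a pericyte regulator of G protein signaling, was called lower without Rat3789 (-0.99 ± 0.24 SE, limma adjusted p = 0.00703, against 0.107 with 5 lungs). Mylk, the myosin light chain kinase, went up by 1.93 ± 0.37 with 5 lungs (SE, limma adjusted p = 0.00306) and 2.30 ± 0.21 with 4 (adjusted p = 1.21e-05). Acta2, the actin of smooth muscle and myofibroblasts, ran from 169 to 546 CPM in the cores and from 140.4 to 191 in the 4 other lungs, with 115 in the Rat3789 library. Acta2 differed by -1.05 ± 0.34 with 5 lungs (SE, limma adjusted p = 0.0363) and -0.95 ± 0.35 with 4 (adjusted p = 0.0545).

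Genes of lung fibroblasts were higher in lung. Of 10 tested lung fibroblast genes 9 were higher and 0 lower in both comparisons, at medians of 3.47 and 4.26. Npnt, an integrin ligand of alveolar fibroblasts and epithelium, read 4.98, 7.72, 10.3, 5.1 and 2.65 CPM in the cores, 73.5, 88.8, 89.3 and 93.5 in the 4 other lungs and 2.79 in the Rat3789 library. The Rat3789 library lay among the cores, and Npnt differed by 2.96 ± 0.89 with 5 lungs (SE, limma adjusted p = 0.0253) and 3.95 ± 0.32 with 4 (adjusted p = 5.73e-06), with 14.4% of the core reads at the pellet rate. Tbx4, a transcription factor of lung mesenchyme, ran from 0.126 to 1.39 CPM in the cores and from 45.5 to 75.2 in the 4 other lungs, with 0.284 in the Rat3789 library. Itga8, an integrin chain of that mesenchyme, differed by 1.22 ± 0.30 with 5 lungs (SE, limma adjusted p = 0.0101) and 1.41 ± 0.27 with 4 (adjusted p = 0.00173).

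General fibroblast genes went in both directions. Of 12 pan-fibroblast genes 3 were higher and 2 lower with 5 lungs, and 4 higher and 5 lower with 4. The counts with 5 lungs were near the shares over all tested genes (17.9% higher and 14.9% lower). With 4 lungs those shares were 20.5% and 17.1%. Dcn, the small proteoglycan decorin, read 335, 844, 678, 619 and 471 CPM in the cores, 73.6, 87.5, 66.7 and 66.1 in the 4 other lungs and 780.4 in the Rat3789 library. Each of the 4 lungs lay below each core, while the Rat3789 library lay among the cores, and Dcn differed by -2.26 ± 0.62 with 5 lungs (SE, limma adjusted p = 0.0166) and -2.94 ± 0.23 with 4 (adjusted p = 4.07e-06). Lum, a related proteoglycan, read 29.7, 164, 108, 195 and 33.2 CPM in the cores, 22.4, 22.9, 26.1 and 15.9 in the 4 other lungs and 513 in the Rat3789 library. Lum was called without Rat3789 alone (-0.99 ± 0.92 with 5 lungs, limma adjusted p = 0.437, and -1.91 ± 0.53 with 4, adjusted p = 0.0147). Pdgfra, the receptor of resident fibroblasts, went up at 15.7, 39.9, 27.2, 38.8 and 18.8 CPM in the cores, 116, 149.7, 102 and 168 in the 4 other lungs and 178 in the Rat3789 library. Pdgfra showed no overlap (2.41 ± 0.27 with 5 lungs, limma adjusted p = 0.000172, and 2.32 ± 0.28 with 4, adjusted p = 8.25e-05). Dpt, a matrix protein of adventitial fibroblasts, was higher by 3.21 ± 0.33 with 5 lungs (SE, limma adjusted p = 0.000111) and 2.94 ± 0.27 with 4 (adjusted p = 1.08e-05), with 82.7% of its core reads at the pellet rate. In the same libraries the adipocyte list summed to 162 to 437 CPM in the cores, 128 to 173 in the 4 lungs and 899 in the Rat3789 library, and its part in these values was not tested.

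The matrix differed by class. Fibrillar collagen and crosslinking genes were called higher in 3 and lower in 3 of 14 cases with 5 lungs, and in 2 and 5 with 4. Those with 5 lungs were near the shares over all tested genes, 17.9% higher and 14.9% lower (20.5% and 17.1% with 4). Col1a1, the main chain of type I collagen, read 1793, 4780.4, 6525, 5028 and 1922 CPM in the cores, 1911, 681, 1344 and 494 in the 4 other lungs and 7722 in the Rat3789 library. The cores of Rat3867 and Rat3877 were low, the Rat3789 library was the highest of the 10, and the groups overlapped (-1.27 ± 0.68 with 5 lungs, limma adjusted p = 0.173, and -1.87 ± 0.47 with 4, adjusted p = 0.00932). Col3a1, of the reticular type III collagen, was not called with 5 lungs or with 4 (limma adjusted p = 0.545 and 0.946). Lox, which crosslinks collagen and elastin, was higher in lung at 2.36 ± 0.45 with 5 lungs (SE, limma adjusted p = 0.00298) and 2.15 ± 0.44 with 4 (adjusted p = 0.00292). P4ha1, a prolyl hydroxylase of collagen that hypoxia induces, read 485, 358, 391, 417 and 446 CPM in the cores, 143, 127, 169.6 and 101 in the 4 other lungs and 339 in the Rat3789 library. P4ha1 was lower in every lung than in every core (-1.38 ± 0.27 with 5 lungs, limma adjusted p = 0.00295, and -1.65 ± 0.15 with 4, adjusted p = 9.92e-06).

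Elastic fibre and basement membrane genes were higher in lung. Of 11 elastic fibre genes 6 were higher and 0 lower with 5 lungs, and 6 and 1 with 4. Eln, elastin itself, read 11.5, 37, 30.0, 86.3 and 82.6 CPM in the cores, 1192, 1227, 655 and 909 in the 4 other lungs and 1461 in the Rat3789 library. The Rat3789 library was the highest and no lung was as low as a core (4.75 ± 0.49 with 5 lungs, limma adjusted p = 0.000104, and 4.63 ± 0.50 with 4, adjusted p = 3.94e-05). The pellet rate reached 11.5% of the core reads of Eln. Fbn1, the fibrillin of microfibrils, differed by 2.05 ± 0.41 with 5 lungs (SE, limma adjusted p = 0.00367) and 1.75 ± 0.34 with 4 (adjusted p = 0.0021). Ltbp2, which binds them, differed by 2.45 ± 0.29 with 5 lungs (SE, limma adjusted p = 0.000212) and 2.67 ± 0.24 with 4 (adjusted p = 9.88e-06). Of 12 basement membrane genes 8 were higher and 0 lower with 5 lungs, and 7 and 1 with 4. Col4a4, a chain of the type IV collagen of alveolar and glomerular membranes, read 9.84, 6.78, 9.06, 10.7 and 10.7 CPM in the cores, 226, 297, 249.6 and 393 in the 4 other lungs and 86.1 in the Rat3789 library. Its groups did not overlap (4.59 ± 0.34 with 5 lungs, limma adjusted p = 2.40e-05, and 4.94 ± 0.18 with 4, adjusted p = 3.51e-08), and its partner Col4a3 differed by 3.98 ± 0.55 with 5 lungs (SE, limma adjusted p = 0.000511) and 4.46 ± 0.40 with 4 (adjusted p = 1.02e-05). The widespread chain Col4a1 differed by 0.65 ± 0.22 with 5 lungs (SE, limma adjusted p = 0.0442) and 0.64 ± 0.24 with 4 (adjusted p = 0.0519), and so was not called with 4 lungs.

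Proteases and their inhibitors were split between the tissues. Among 16 matrix remodelling genes 3 were higher and 5 lower with 5 lungs, and 4 and 6 with 4. Plau, the urokinase plasminogen activator, read 1608, 904, 1417, 1226 and 1402 CPM in the cores, 398, 390.0, 466 and 308 in the 4 other lungs and 387 in the Rat3789 library. All cores exceeded all lungs (-1.74 ± 0.16 with 5 lungs, limma adjusted p = 6.45e-05, and -1.74 ± 0.17 with 4, adjusted p = 2.25e-05). Timp3, the inhibitor that binds to matrix, showed the opposite at 38, 30.4, 26.6, 22.1 and 28.9 CPM in the cores, 897, 1153, 634 and 1438 in the 4 other lungs and 36 in the Rat3789 library. The Rat3789 library stayed in the core range and Timp3 differed by 4.15 ± 0.83 with 5 lungs (SE, limma adjusted p = 0.0037) and 5.10 ± 0.22 with 4 (adjusted p = 6.30e-08). Mmp9, a gelatinase of neutrophils, was called by limma with 4 lungs alone (1.46 ± 0.33 SE, limma adjusted p = 0.00465, against 0.145 with 5). DESeq2 called Mmp9 with 5 lungs too (adjusted p = 0.0336).

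The largest decreases in lung joined myeloid, stromal and hypoxia genes. With 5 lungs they were Spp1, Grem1, Mgarp, Mmp12, Igfbp3, AABR07044412.1, Hspa1b, Egln3, Itga11 and Nos2. Without Rat3789 the 10 were Mgarp, Grem1, Spp1, Igfbp3, Tnn, Itga11, Egln3, Hspa1b, Mmp12 and AABR07044412.1, a predicted locus. Mgarp encodes a mitochondrial protein that hypoxia induces. Grem1, a secreted BMP antagonist, read 51.6, 145, 121, 33.5 and 28.9 CPM in the cores, 3.16, 3.39, 2.31 and 0.812 in the 4 other lungs and 6.31 in the Rat3789 library. Igfbp3, a binding protein of insulin-like growth factors, read 1275, 498, 549.6, 624 and 1508 CPM in the cores, 67.3, 38.3, 38.3 and 22.5 in the 4 other lungs and 182 in the Rat3789 library. Igfbp3 differed by -3.93 ± 0.52 with 5 lungs (SE, limma adjusted p = 0.000394) and -4.38 ± 0.38 with 4 (adjusted p = 8.11e-06). Itga11, a collagen-binding integrin of fibroblasts, ran from 20.5 to 102 CPM in the cores and from 1.95 to 5.57 in the 4 other lungs, with 16.4 in the Rat3789 library. Tnn, the matrix protein tenascin-N, ran from 22.5 to 241 CPM in the cores and from 1.68 to 8.94 in the 4 other lungs, with 146 in the Rat3789 library. Hspa1b is an inducible heat shock protein. Hspa1b differed by -3.65 ± 0.42 with 5 lungs (SE, limma adjusted p = 0.000188) and -3.54 ± 0.43 with 4 (adjusted p = 9.18e-05).

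Macrophage genes of the activated and hypoxic kind were higher in the core. Of 17 tested members 12 were lower in lung and 0 higher with 5 lungs (median -1.82), and 11 lower with 4 (median -1.70). Spp1, the secreted phosphoprotein osteopontin, read 5242, 6075, 4609, 3311 and 5542 CPM in the cores, 115, 339, 232 and 114 in the 4 other lungs and 135 in the Rat3789 library. The lowest core exceeded the highest lung and the Rat3789 library lay among the lungs, with a difference of -4.84 ± 0.30 with 5 lungs (SE, limma adjusted p = 1.25e-05) and -4.76 ± 0.31 with 4 (adjusted p = 1.37e-06). Gpnmb, a glycoprotein of lipid-laden macrophages, read 5368, 4211, 3845, 3034 and 5527 CPM in the cores, 1104, 1339, 1744 and 905 in the 4 other lungs and 1114 in the Rat3789 library. Gpnmb showed no overlap (-1.83 ± 0.22 with 5 lungs, limma adjusted p = 0.000212, and -1.80 ± 0.23 with 4, adjusted p = 0.000122). Mmp12, the macrophage elastase, read 1323, 919, 961, 1175 and 907 CPM in the cores, 73.6, 73.9, 156 and 84.6 in the 4 other lungs and 4.38 in the Rat3789 library. The Rat3789 library was far below the other lungs there, and Mmp12 differed by -4.38 ± 0.77 with 5 lungs (SE, limma adjusted p = 0.00186) and -3.51 ± 0.22 with 4 (adjusted p = 8.07e-07).

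Nos2 and Arg1, which use arginine in opposite polarization states of macrophages, were both higher in the core. Nos2 read 82, 37.3, 13.2, 17.1 and 42.2 CPM in the cores, 2.62, 8.12, 2.96 and 3.08 in the 4 other lungs and 1.54 in the Rat3789 library. Arg1 read 89.7, 118, 50.7, 50.2 and 129.8 CPM in the cores, 46, 27.9, 19.7 and 17.8 in the 4 other lungs and 14 in the Rat3789 library. Neither gene's groups overlapped, and Nos2 differed by -3.32 ± 0.53 with 5 lungs (SE, limma adjusted p = 0.00114) and -3.06 ± 0.51 with 4 (adjusted p = 0.000818). Arg1 differed by -1.82 ± 0.36 with 5 lungs (SE, limma adjusted p = 0.00339) and -1.65 ± 0.35 with 4 (adjusted p = 0.00334). Fabp5, a lipid chaperone, differed by -2.01 ± 0.24 with 5 lungs (SE, limma adjusted p = 0.000212) and -1.83 ± 0.19 with 4 (adjusted p = 3.05e-05). Il1b, named after its values were seen, was not called with 5 lungs or 4 (limma adjusted p = 0.727 and 0.81) and ran from 29.1 to 178 CPM in the cores and from 52.5 to 117 in the 4 other lungs, with 15.9 in the Rat3789 library. Vegfa, the vessel growth factor, was not called either (limma adjusted p = 0.867 and 0.403).

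General leukocyte and myeloid genes had a smaller median difference than the activated macrophage list, which was not tested. Of 14 pan-myeloid genes 5 were lower in lung and 0 higher with 5 lungs, and 7 lower with 4 (medians -0.33 and -0.54). The list summed to 11844 to 17211 CPM in the cores, 13214 to 14885 in the 4 lungs and 26116 in the Rat3789 library. Tyrobp, the signaling adaptor of myeloid receptors, read 546, 729, 509.5, 523 and 504 CPM in the cores, 306, 316, 360.2 and 314 in the 4 other lungs and 379 in the Rat3789 library. Tyrobp was lower in every lung (-0.74 ± 0.12 with 5 lungs, limma adjusted p = 0.00117, and -0.78 ± 0.12 with 4, adjusted p = 0.000512). Laptm5, a lysosomal membrane protein of leukocytes, differed by -0.80 ± 0.12 with 5 lungs (SE, limma adjusted p = 0.000906) and -0.88 ± 0.11 with 4 (adjusted p = 9.24e-05). Cd68, the macrophage lysosomal glycoprotein, differed by -0.83 ± 0.21 with 5 lungs (SE, limma adjusted p = 0.0114) and -0.98 ± 0.18 with 4 (adjusted p = 0.00136). Itgam, an integrin of neutrophils and macrophages, was not called with 5 lungs or 4 (limma adjusted p = 0.534 and 0.13), with the cores of Rat3867 and Rat3877 at 661 and 623 CPM and the other cores between 293 and 309.

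**Figure D3:**
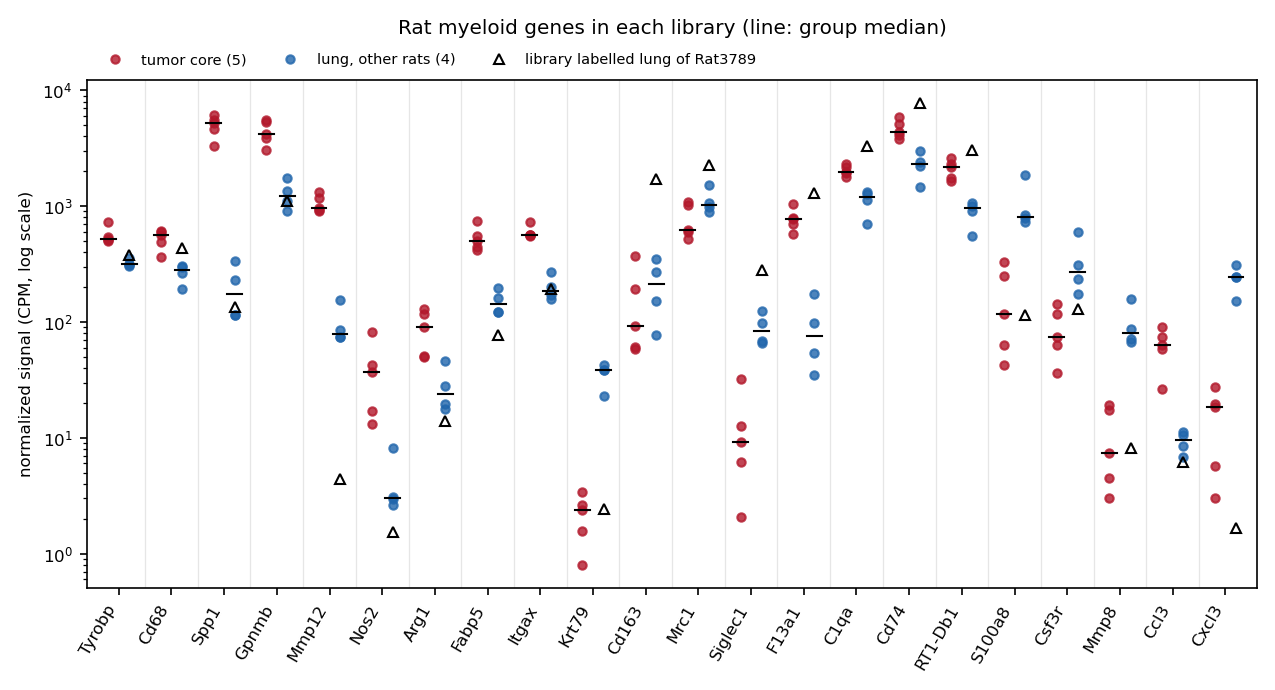
Normalized signal (CPM, log scale) of rat myeloid genes, with 5 cores in red, 4 lungs in blue, the library labelled lung of Rat3789 as an open triangle and lines at the group medians. Spp1, Gpnmb, Mmp12, Nos2 and Itgax are higher in every core, Siglec1 in every lung, and the triangle is apart from the other lungs in Mmp12, F13a1, C1qa, Cd74 and Cxcl3.

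Genes of tissue-resident macrophages did not move together. Of 15 tested members 3 were higher and 1 lower with 5 lungs, and 3 and 4 with 4. Among all tested genes the shares were 17.9% and 14.9% with 5 lungs, and 20.5% and 17.1% with 4. Siglec1, a sialic acid receptor of resident macrophages, read 12.7, 6.15, 2.07, 9.11 and 32.2 CPM in the cores, 68.9, 97.7, 123 and 66.2 in the 4 other lungs and 281 in the Rat3789 library. Siglec1 was higher in every lung (3.66 ± 0.64 with 5 lungs, limma adjusted p = 0.00182, and 3.32 ± 0.61 with 4, adjusted p = 0.00139). Adgre1, an adhesion receptor of macrophages, differed by 1.87 ± 0.59 with 5 lungs (SE, limma adjusted p = 0.0305) and 1.57 ± 0.56 with 4 (adjusted p = 0.0456). Mrc1, the mannose receptor, was not called (limma adjusted p = 0.0574 with 5 lungs and 0.0826 with 4), although under scaling to total reads its adjusted p was 0.031 and 0.0425. Cd163, the hemoglobin scavenger receptor, read 60.8, 92.8, 58, 194 and 372 CPM in the cores, 269.7, 349, 152 and 76.6 in the 4 other lungs and 1712 in the Rat3789 library, with overlap (limma adjusted p = 0.231 and 0.43).

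F13a1, the clotting factor chain of monocyte-derived macrophages, went down. It read 795, 698, 1045, 574 and 778 CPM in the cores, 98.3, 173, 35 and 53.6 in the 4 other lungs and 1304 in the Rat3789 library. The Rat3789 library was the highest of the 10 and the other lungs lay below every core (-2.52 ± 0.78 with 5 lungs, limma adjusted p = 0.0288, and -3.34 ± 0.38 with 4, adjusted p = 5.14e-05). C1qa, a chain of complement C1q, read 2162, 2290.2, 1785, 1953 and 1986 CPM in the cores, 1128, 1263, 1324 and 707 in the 4 other lungs and 3282 in the Rat3789 library. C1qa was called without Rat3789 alone (-0.59 ± 0.32 with 5 lungs, limma adjusted p = 0.179, and -0.92 ± 0.18 with 4, adjusted p = 0.00235).

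Alveolar macrophage genes gave no common direction. Of 11 tested members 3 were higher and 3 lower with 5 lungs, and 5 and 4 with 4. Itgax, the integrin chain of dendritic cells and alveolar macrophages, read 723, 564, 558, 564 and 569 CPM in the cores, 201, 169.9, 268 and 158 in the 4 other lungs and 192 in the Rat3789 library. Itgax was lower in every lung (-1.61 ± 0.14 with 5 lungs, limma adjusted p = 5.37e-05, and -1.60 ± 0.15 with 4, adjusted p = 1.59e-05). Krt79, a keratin that marks alveolar macrophages in rodents, read 1.58, 2.36, 0.795, 2.63 and 3.41 CPM in the cores, 42.1, 38.3, 23 and 38.6 in the 4 other lungs and 2.45 in the Rat3789 library. Krt79 differed by 3.40 ± 0.74 with 5 lungs (SE, limma adjusted p = 0.00576) and 4.17 ± 0.39 with 4 (adjusted p = 1.48e-05), with 10.2% of its core reads at the pellet rate. Pparg, the regulator of their development, was higher by 0.94 ± 0.23 with 5 lungs (SE, limma adjusted p = 0.010) and 0.96 ± 0.26 with 4 (adjusted p = 0.0122), with 13.1% of its core reads at the pellet rate. Fabp4, made by adipocytes and endothelium as well, ran from 116 to 379 CPM in the cores and from 28 to 67.7 in the 4 other lungs, with 392 in the Rat3789 library. Fabp4 was called lower without Rat3789 alone (-1.48 ± 0.64 with 5 lungs, limma adjusted p = 0.0987, and -2.11 ± 0.38 with 4, adjusted p = 0.00121). Marco was not analysed here.

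Monocyte genes were called higher in 3 and lower in 1 of 8 cases with 5 lungs, and 2 and 1 with 4. Plac8, of circulating monocytes, read 25.6, 25.4, 32.6, 22.7 and 21.1 CPM in the cores, 48.5, 47.5, 68.2 and 85.3 in the 4 other lungs and 71.4 in the Rat3789 library. Plac8 was higher in every lung (1.31 ± 0.18 with 5 lungs, limma adjusted p = 0.000511, and 1.26 ± 0.19 with 4, adjusted p = 0.000423). Spn, a sialomucin of leukocytes, differed by -1.37 ± 0.39 with 5 lungs (SE, limma adjusted p = 0.0207) and -1.02 ± 0.28 with 4 (adjusted p = 0.0133).

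The called neutrophil genes were mostly higher in lung. Of 14 tested members 6 were higher, 1 lower and 7 not called with 5 lungs (median 1.76). With 4 lungs these counts were 9, 2 and 3 (median 2.30). The neutrophil genes described below all had higher means in lung, and the members called lower are not described. With 5 lungs, 10 were higher with the rat as a block and 3 by limma-voom. S100a8, the calcium-binding protein that neutrophils hold in their cytosol, read 331, 249.7, 42.8, 62.9 and 117 CPM in the cores, 783, 835, 733 and 1874 in the 4 other lungs and 114 in the Rat3789 library. The 4 lungs lay above all cores and the Rat3789 library among the cores (2.39 ± 0.74 with 5 lungs, limma adjusted p = 0.0287, and 3.01 ± 0.55 with 4, adjusted p = 0.00147). S100a9, its partner, was called by limma without Rat3789 alone (1.85 ± 0.78 with 5 lungs, limma adjusted p = 0.0917, and 2.50 ± 0.59 with 4, adjusted p = 0.00602). DESeq2 called S100a9 with 5 lungs too (adjusted p = 0.0396). Csf3r, the receptor for the neutrophil growth factor, differed by 1.68 ± 0.44 with 5 lungs (SE, limma adjusted p = 0.014) and 1.92 ± 0.41 with 4 (adjusted p = 0.00382). Mmp8, the neutrophil collagenase, read 19.3, 17.5, 3.02, 4.48 and 7.44 CPM in the cores, 71.4, 87.7, 67.7 and 156 in the 4 other lungs and 8.13 in the Rat3789 library (2.79 ± 0.76 with 5 lungs, limma adjusted p = 0.0169, and 3.49 ± 0.52 with 4, adjusted p = 0.000359). Lcn2, made by neutrophils and by airway epithelium, differed by 4.55 ± 0.64 with 5 lungs (SE, limma adjusted p = 0.000549) and 5.16 ± 0.40 with 4 (adjusted p = 3.97e-06). Erythroid and platelet genes were also called higher in lung, 5 of 6 members in both comparisons. That list summed to 129 to 986 CPM in the cores, 799.8 to 2002 in the 4 lungs and 530.4 in the Rat3789 library. In the lungs of Rat3869, Rat3875, Rat3876 and Rat3877 it summed to 894, 1208, 2002 and 799.8 CPM. The neutrophil list summed to 3366, 3588, 2763 and 6079 CPM in the same lungs, and a relation between the 2 lists was not tested. The hemoglobin gene Hbb read 74.7, 646, 68.8, 62.9 and 65.7 CPM in the cores, 539, 785, 1326 and 502 in the 4 other lungs and 281 in the Rat3789 library, and its part in the neutrophil and endothelial results was not tested.

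MHC class II and dendritic cell genes were lower in the 4 lungs. Of 16 tested members 3 were lower and 0 higher with 5 lungs, and 9 lower with 4 (medians -0.73 and -0.93). With 5 lungs, 5 were lower without the core of Rat3867, and with the rat as a block 11. Cd74, the invariant chain, read 4398, 4156, 5158, 5907 and 3803 CPM in the cores, 2402, 2240.2, 2975 and 1477 in the 4 other lungs and 7713 in the Rat3789 library. Each of the 4 lungs was below each core while the Rat3789 library was above them, and the difference was called without that library alone (-0.71 ± 0.37 with 5 lungs, limma adjusted p = 0.163, and -1.07 ± 0.22 with 4, adjusted p = 0.00256). RT1-Db1, a class II beta chain, differed by -0.91 ± 0.37 with 5 lungs (SE, limma adjusted p = 0.0777) and -1.27 ± 0.21 with 4 (adjusted p = 0.000693). RT1-Bb, another, differed by -1.05 ± 0.35 with 5 lungs (SE, limma adjusted p = 0.0384) and -1.40 ± 0.20 with 4 (adjusted p = 0.000307). RT1 genes are a family of near-identical copies whose reads the counting could split. Ccr7, the receptor of migrating dendritic cells, and Cd86, a costimulatory ligand, were called lower in both comparisons. Ccr7 differed by -1.43 ± 0.31 with 5 lungs (SE, limma adjusted p = 0.00546) and -1.25 ± 0.29 with 4 (adjusted p = 0.00532). Cd86 differed by -0.81 ± 0.21 with 5 lungs (SE, limma adjusted p = 0.0129) and -0.93 ± 0.20 with 4 (adjusted p = 0.00334).

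Mast cell genes were called in both directions. Among 9 mast cell genes 1 (Cma1, values not given here) was higher and 1 (Mcpt1) lower with 5 lungs, and 2 and 2 with 4. Mcpt1, a chymase of mucosal mast cells, ran from 14 to 201 CPM in the cores and from 4.06 to 14.3 in the 4 other lungs, with 4.61 in the Rat3789 library. Mcpt1 differed by -2.68 ± 0.64 with 5 lungs (SE, limma adjusted p = 0.00925) and -2.51 ± 0.66 with 4 (adjusted p = 0.0117), while Cpa3, a carboxypeptidase of all mast cells, was not called (limma adjusted p = 0.95 and 0.458). Of 20 lymphoid genes listed, 7 were in the deposited table and 5 were tested. Il2rb, a receptor chain of NK and T cells, was the 1 called, and ran from 1.39 to 4.93 CPM in the cores and from 0.336 to 1.07 in the 4 other lungs, with 1.19 in the Rat3789 library. Il2rg, inactivated in this strain, still gave reads, which ran from 9.93 to 18.8 CPM in the cores and from 12.6 to 19.9 in the 4 other lungs, with 9.73 in the Rat3789 library. Rag1 and Rag2 were not analysed here.

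Chemokine genes split between tissues. Of 21 tested members 5 were higher in lung and 9 lower with 5 lungs, and 7 and 11 with 4. Ccl3, a macrophage chemokine, read 90.7, 74.8, 62.8, 26.4 and 58.4 CPM in the cores, 10.6, 11.3, 8.55 and 6.76 in the 4 other lungs and 6.2 in the Rat3789 library. Ccl3 was lower in every lung (-2.78 ± 0.31 with 5 lungs, limma adjusted p = 0.000154, and -2.67 ± 0.31 with 4, adjusted p = 6.73e-05). Ccl4, its relative, differed by -2.21 ± 0.26 with 5 lungs (SE, limma adjusted p = 0.000212) and -2.19 ± 0.28 with 4 (adjusted p = 0.000121). Csf1, the macrophage growth factor, differed by -1.73 ± 0.16 with 5 lungs (SE, limma adjusted p = 6.14e-05) and -1.65 ± 0.15 with 4 (adjusted p = 1.37e-05). Among the related chemokines that attract neutrophils the directions differed, though the counting could split reads between such close copies. Cxcl2 read 235, 135, 21.1, 38.5 and 119 CPM in the cores, 23.3, 41.3, 11.4 and 8.06 in the 4 other lungs and 11.3 in the Rat3789 library. Cxcl2 had overlap and a lower mean in lung (-2.32 ± 0.65 with 5 lungs, limma adjusted p = 0.0189, and -2.20 ± 0.68 with 4, adjusted p = 0.025). With the rat as a block its difference was -1.81 (limma adjusted p = 0.0624). Cxcl3 read 19.5, 27.3, 3.02, 5.72 and 18.5 CPM in the cores, 244, 243, 152 and 312 in the 4 other lungs and 1.65 in the Rat3789 library. The 4 lungs were all above the cores and the Rat3789 library was below them. By limma, Cxcl3 was called without that library alone (2.95 ± 1.32 with 5 lungs, limma adjusted p = 0.108, and 4.37 ± 0.57 with 4, adjusted p = 0.000137). With 5 lungs it was called by edgeR (adjusted p = 0.0128) and by DESeq2 (adjusted p = 0.000783). Limma also called Cxcl1 without the Rat3789 library alone (1.64 ± 0.74 with 5 lungs, limma adjusted p = 0.112, and 2.07 ± 0.69 with 4, adjusted p = 0.0336).

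Hypoxia and glycolysis genes were lower in lung. Of 15 hypoxia genes 12 were lower and 0 higher in both comparisons, at medians of -1.76 and -1.86. Of 14 glycolysis genes 14 were lower in both, at medians of -1.63 and -1.78. Slc2a1, the main glucose transporter of most cells, read 1024, 807, 1263, 736 and 917 CPM in the cores, 166, 175, 107 and 83.3 in the 4 other lungs and 191 in the Rat3789 library. Egln3, the oxygen-sensing prolyl hydroxylase that hypoxia induces, read 226, 206, 248, 154 and 201 CPM in the cores, 22.5, 17.2, 11.8 and 7.74 in the 4 other lungs and 40.7 in the Rat3789 library. No lung reached a core in either gene, the Rat3789 library was the highest lung in both. Slc2a1 differed by -2.76 ± 0.24 with 5 lungs (SE, limma adjusted p = 4.60e-05) and -2.88 ± 0.23 with 4 (adjusted p = 4.60e-06). Egln3 differed by -3.59 ± 0.36 with 5 lungs (SE, limma adjusted p = 9.73e-05) and -3.90 ± 0.27 with 4 (adjusted p = 1.69e-06). Bnip3, a mitophagy receptor, differed by -2.89 ± 0.30 with 5 lungs (SE, limma adjusted p = 0.000111) and -3.16 ± 0.21 with 4 (adjusted p = 1.56e-06). Hk2, the inducible hexokinase, differed by -1.72 ± 0.26 with 5 lungs (SE, limma adjusted p = 0.000774) and -1.95 ± 0.18 with 4 (adjusted p = 1.11e-05). Hk1, the constitutive hexokinase, differed by -0.44 ± 0.14 with 5 lungs (SE, limma adjusted p = 0.0332) and -0.52 ± 0.13 with 4 (adjusted p = 0.0097). Gapdh was not analysed here. Lysosome and lipid genes moved with them in part, with 6 of 15 lower and 0 higher with 5 lungs and 7 lower with 4. Lgals3, the macrophage galectin, differed by -1.66 ± 0.21 with 5 lungs (SE, limma adjusted p = 0.000335) and -1.69 ± 0.22 with 4 (adjusted p = 0.000162).

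**Figure D4:**
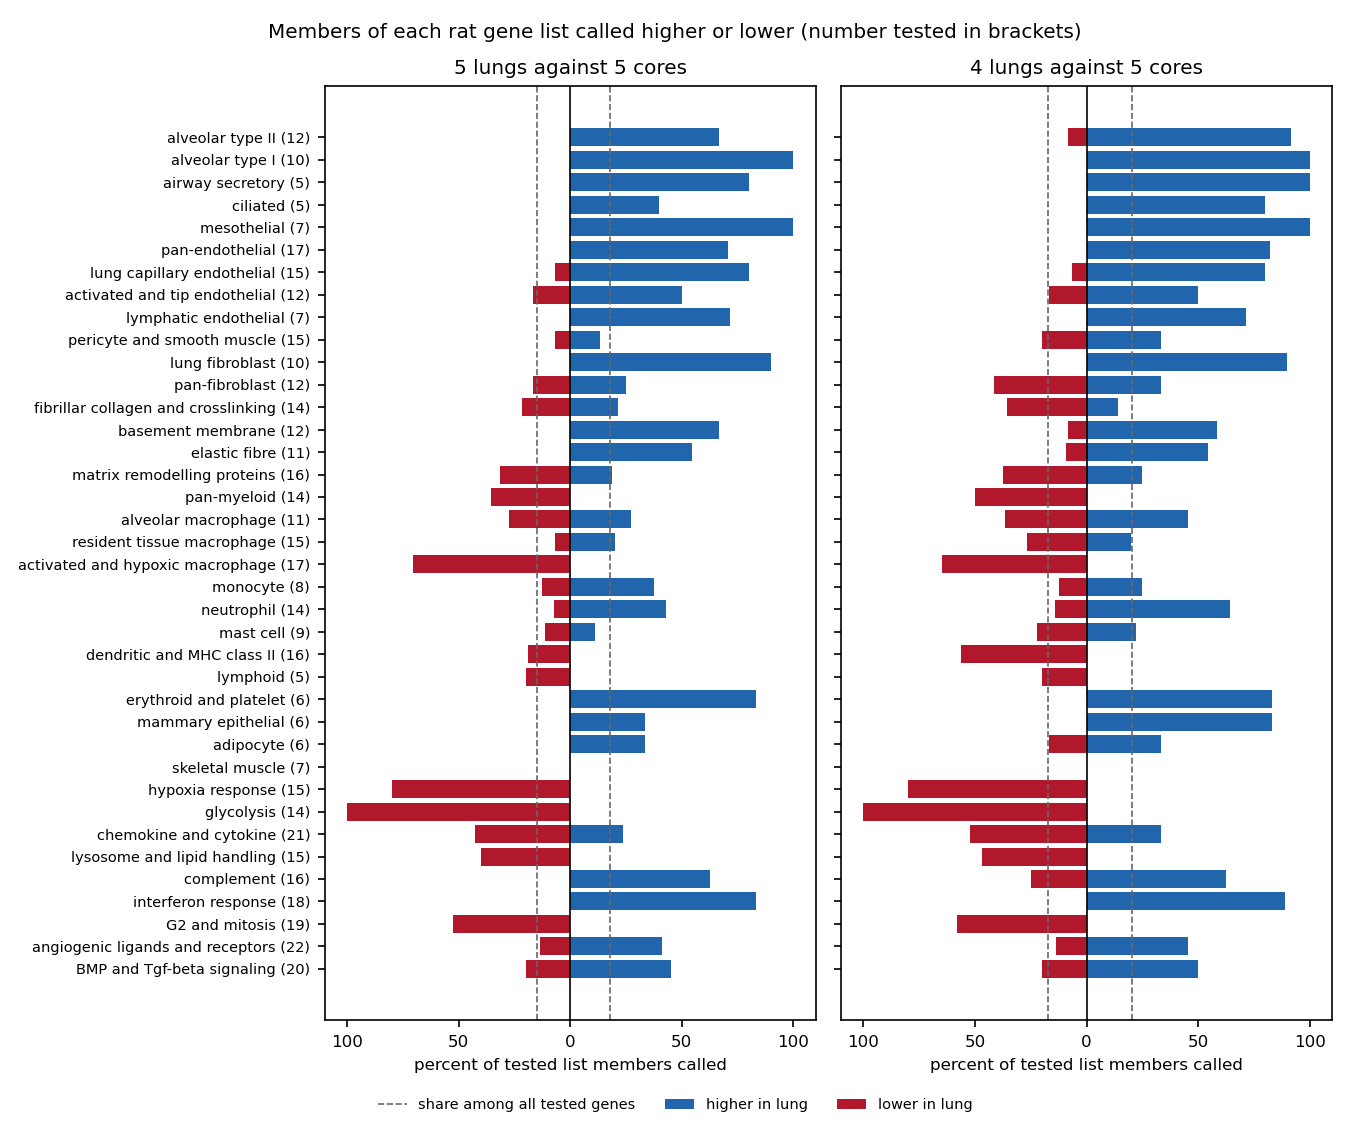
Percent of the tested members of 38 rat gene lists called higher (blue, right) or lower (red, left) in lung, with 5 lungs on the left panel and 4 on the right, dashed lines marking the share of all tested genes. Glycolysis genes were all called lower and alveolar type I genes all higher in both panels, and the MHC class II bar lengthens from 3 to 9 genes without Rat3789.

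Interferon-induced genes were higher in lung in 15 of 18 cases with 5 lungs and 16 with 4, and lower in 0, at medians of 1.08 and 1.19. Irf7, the factor that amplifies interferon production, read 27.1, 29.1, 14.5, 23.6 and 30.9 CPM in the cores, 96.6, 81, 80.4 and 118 in the 4 other lungs and 27.8 in the Rat3789 library. The Rat3789 library lay among the cores and the other lungs above them (1.59 ± 0.36 with 5 lungs, limma adjusted p = 0.0065, and 1.94 ± 0.22 with 4, adjusted p = 4.61e-05). Oas2, a sensor of double-stranded RNA, read 3.04, 2.05, 2.38, 3.24 and 3.15 CPM in the cores, 12.6, 11, 14.8 and 14.3 in the 4 other lungs and 13 in the Rat3789 library. Oas2 showed no overlap (2.26 ± 0.20 with 5 lungs, limma adjusted p = 5.37e-05, and 2.26 ± 0.23 with 4, adjusted p = 2.60e-05). Mx1 and Mx2, antiviral GTPases, were both higher in lung. Mx1 differed by 1.37 ± 0.39 with 5 lungs (SE, limma adjusted p = 0.0207) and 1.64 ± 0.33 with 4 (adjusted p = 0.00272). For Mx2 it was 2.19 ± 0.48 with 5 lungs (SE, limma adjusted p = 0.00614) and 2.60 ± 0.36 with 4 (adjusted p = 0.000206). Isg15 was called with 4 lungs alone (limma adjusted p = 0.26 with 5 and 0.00678 with 4).

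Complement genes were called higher in 10 of 16 cases with 5 lungs and lower in 0, and with 4 lungs they were higher in 10 and lower in 4. The summed level went the other way. It was 6785 to 8384 CPM in the cores, 4236 to 6436 in the 4 lungs and 15347 in the Rat3789 library. C3, the central component, read 11.8, 16.5, 3.66, 8.8 and 17.5 CPM in the cores, 220.3, 139, 124 and 105 in the 4 other lungs and 107 in the Rat3789 library. C3 was higher in every lung (3.71 ± 0.39 with 5 lungs, limma adjusted p = 0.00012, and 3.79 ± 0.41 with 4, adjusted p = 3.71e-05). C7, a part of the membrane attack complex, differed by 6.06 ± 0.52 with 5 lungs (SE, limma adjusted p = 4.59e-05) and 6.14 ± 0.54 with 4 (adjusted p = 9.62e-06), with 16.9% of its core reads at the pellet rate. C4b, which has a near-identical copy, read 6.68, 20.3, 8.11, 12.2 and 7.69 CPM in the cores, 85.4, 80.3, 61.1 and 81.1 in the 4 other lungs and 578 in the Rat3789 library, the Rat3789 library far above the others, with 61.5% of its core reads at the pellet rate. The C1q chains described above were among those called lower with 4 lungs.

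Genes of cell division were lower in lung. Of 19 G2 and mitosis genes 10 were lower and 0 higher with 5 lungs, and 11 lower with 4, at medians of -0.46 and -0.53. With 5 lungs the count was 5 or 6 without the lung of Rat3875, Rat3876 or Rat3877, or without the core of Rat3867, Rat3875, Rat3876 or Rat3877. It was 4 under scaling to total reads. Ube2c, a conjugating enzyme of the anaphase-promoting complex, read 49.9, 41.4, 43.4, 42.2 and 42.5 CPM in the cores, 25.6, 23, 23.7 and 16.2 in the 4 other lungs and 28.7 in the Rat3789 library. Ube2c was lower in every lung (-0.93 ± 0.15 with 5 lungs, limma adjusted p = 0.00109, and -1.01 ± 0.15 with 4, adjusted p = 0.000293). Mki67, the proliferation antigen, differed by -0.61 ± 0.19 with 5 lungs (SE, limma adjusted p = 0.0291) and -0.72 ± 0.18 with 4 (adjusted p = 0.00846), and under scaling to total reads with 5 lungs its difference was -0.50 (limma adjusted p = 0.0732). Top2a was not called (limma adjusted p = 0.292 and 0.0816).

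Ligands and receptors that act on vessels and stroma were split. Of 22 angiogenic genes 9 were higher and 3 lower with 5 lungs, and 10 and 3 with 4. Nrp1, a coreceptor of Vegfa, differed by 1.48 ± 0.18 with 5 lungs (SE, limma adjusted p = 0.00021) and 1.44 ± 0.18 with 4 (adjusted p = 0.000124). Of 20 BMP and Tgf-beta genes 9 were higher and 4 lower with 5 lungs, and 10 and 4 with 4. Bmp6, a BMP ligand, read 1.82, 2.99, 2.07, 2.32 and 4.67 CPM in the cores, 44.6, 39.3, 53.8 and 78.1 in the 4 other lungs and 13.1 in the Rat3789 library. Bmp6 was higher in every lung (3.92 ± 0.43 with 5 lungs, limma adjusted p = 0.000154, and 4.32 ± 0.30 with 4, adjusted p = 1.94e-06). Smad6, the inhibitory Smad that BMP signals induce, differed by 3.06 ± 0.63 with 5 lungs (SE, limma adjusted p = 0.00408) and 3.67 ± 0.39 with 4 (adjusted p = 3.25e-05). Acvrl1, an endothelial BMP receptor, differed by 1.88 ± 0.33 with 5 lungs (SE, limma adjusted p = 0.00175) and 2.18 ± 0.22 with 4 (adjusted p = 2.16e-05). Tgfb1, the most widely made Tgf-beta ligand, differed by -0.80 ± 0.13 with 5 lungs (SE, limma adjusted p = 0.00114) and -0.89 ± 0.11 with 4 (adjusted p = 0.000108). The antagonist Grem1 differed by -4.54 ± 0.58 with 5 lungs (SE, limma adjusted p = 0.000338) and -4.86 ± 0.55 with 4 (adjusted p = 5.39e-05).

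Leaving out Rat3789 changed some calls. Of the 154 named genes with values here, 113 were called in both comparisons, 15 with 4 lungs alone, 2 with 5 alone and 24 in neither. The genes called by limma with 4 lungs alone were Lum, Col1a1, Pdgfrb, Rgs5, C1qa, C1qb, Cd74, RT1-Da, RT1-Db1, Fabp4, Mmp9, S100a9, Cxcl1, Cxcl3 and Isg15. Of these, DESeq2 called Mmp9, S100a9 and Cxcl3 with 5 lungs, and edgeR called Cxcl3. In C1qb, the partner chain of C1qa, the adjusted p by limma was 0.142 with 5 lungs and 0.00193 with 4. In RT1-Da, a class II alpha chain, it was 0.157 and 0.00169. With the rat as a block, which leaves out the Rat3789 lung and the Rat3867 core, limma called these 15 genes too, with adjusted p from 3.02e-05 for Fabp4 to 0.021 for Cxcl1. Acta2 and Col4a1 were called with 5 lungs alone. With all 5 lungs the calls of 19 named genes were lost when at least 1 lung other than Rat3789, or 1 core, was left out: Acta2, Adgre1, Col4a1, Defb4, F13a1, Gpihbp1, Hk1, Icam1, Mki67, Mx1, Npnt, RT1-Bb, S100a8, Scgb1a1, Sftpc, Slc34a2, Spn, Tie1 and Tnn. With 4 lungs the same held for 5 genes, Adgre1, Cxcl1, Cxcl2, Gpihbp1 and Tie1.

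Counts of other lists moved by more than 1.5 times in some alternatives. Without the genes at over 10% pellet rate, the genes called higher with 5 lungs numbered 5 in the lung fibroblast list, 5 in complement, 3 in activated endothelium and 2 in lymphatic endothelium. Chemokine genes called higher with 5 lungs numbered 3 without the lung of Rat3869 or that of Rat3876, and 8 with the rat as a block. Of the pericyte and smooth muscle genes with 4 lungs, 3 were higher without the lung of Rat3875, and 6 lower without the core of Rat3877. With 5 lungs and the rat as a block, 7 fibrillar collagen and crosslinking genes were lower. The erythroid and platelet genes called higher with 5 lungs numbered 3 by edgeR and by limma-voom. Airway secretory genes called higher numbered 1 with 5 lungs and 2 with 4 by limma-voom. With 5 lungs they also numbered 1 or 2 when the lung of Rat3869, Rat3875, Rat3876 or Rat3877, or the core of Rat3867, Rat3869, Rat3875 or Rat3877, was left out.

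**Figure D5:**
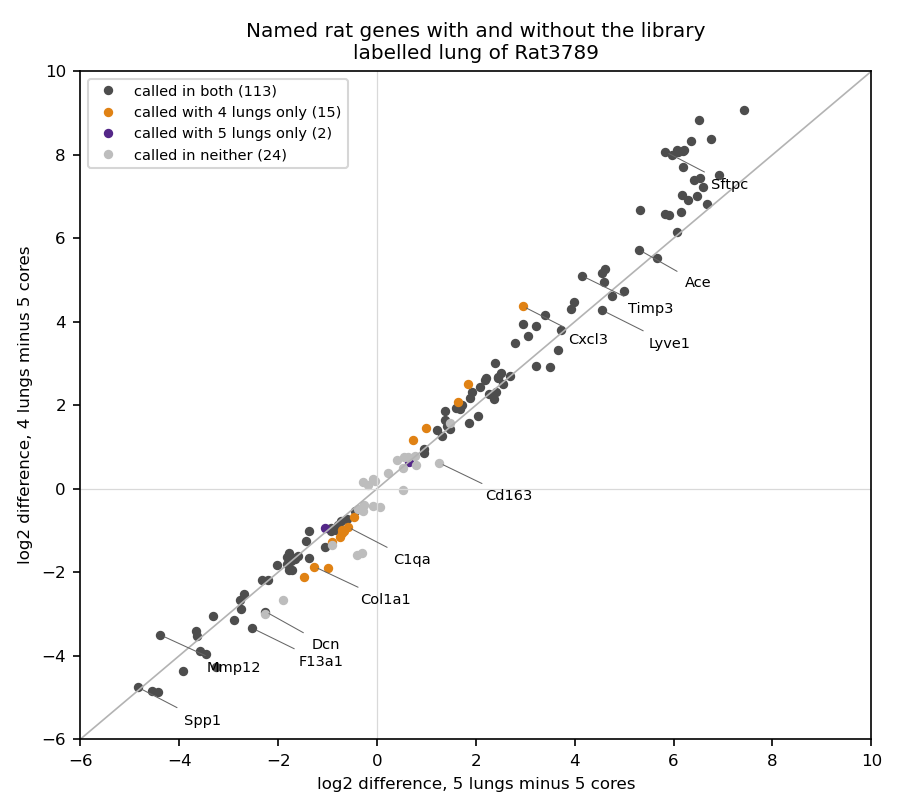
Log2 difference between lung and core with 4 lungs (vertical) against 5 lungs (horizontal) for the 154 named rat genes, colored by the comparison that called them, with a line of equality. Surfactant gene Sftpc lies above the line, Mmp12 above it on the negative side, and Dcn, F13a1 and C1qa below it.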

How the data were processed

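Poly(A) RNA was sequenced from whole lung and dissected tumor. Per the submitters' processing notes, Trim Galore, STAR, featureCounts and limma were used with the GRCm38 and Rnor_6.0 builds; versions, the strand setting and the rule for assigning reads to a species are not stated in them. The deposited values are a normalized signal per gene and library on a linear scale, with a separate table for each species. For the pellet of 4T1 cells alone, the authors deposited raw read counts per gene, and these gave the pellet rate. Every rat value was a whole read count plus an offset of 0.5 reads, divided by a scaled library size (100% of values whole within 0.01 reads). Libraries were assigned from the labels, reading sample names that end in "lung" as lung and in "in" as tumor core, and 0 columns of values were left unmapped. No library repeated another, as the most alike pair of a group still had a chi-square of 5.70 per degree of freedom over genes. Each library is 1 tissue of 1 rat, and the labels name the same animal for lung and core in 4 rats.

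Genes reaching 1 CPM in 5 or more of the libraries were tested with limma 3.58.1 (R 4.3.3) and an intensity trend on log2 of the deposited values, with no added pseudocount, two-sided, called at a Benjamini-Hochberg adjusted p under 0.05. The planned test for raw counts was not the main one because the tables of the 10 libraries hold scaled values. EdgeR 4.0.16 (quasi-likelihood), DESeq2 1.42.0 and limma-voom were run on the recovered reads as alternatives, beside other scalings (total reads, upper quartile, TMM), filters and pseudocounts, each library left out, genes with over 10% of reads at the pellet rate left out, and the rat as a block. The same alternatives for 4 lungs were chosen after seeing the data. The deviations of lung and core from their group means correlated at 0.067, -0.036, -0.0025 and 0.184 within the 4 rats. The steps were tested on simulated data. There limma recovered 52% of 2-fold changes with 5 lungs and 38% with 4, and 81% and 74% of 4-fold changes. A gene that was not called may therefore still differ. The simulation held no lung set apart from the others as Rat3789 is. The members and gene lists were chosen with earlier results of these data known. Named genes were drawn from the 10 largest called increases and decreases without overlap at a mean of at least 2 log2 CPM. They were also drawn from the first 3 tested genes of each list and up to 3 called genes of each list with the smallest p. Either comparison could supply them. Not every gene that meets this rule is described, and counts over the named genes cover only the 154 with values here. Shares of reads were compared by exact permutation over libraries.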

Additional observations from a re-analysis of the deposited data

Results flagged for a closer look

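In 312 sets of 5 libraries, 1 set for each group and each named gene or library measure, the gap of the highest or lowest library to its nearest neighbour was divided by the range of the set. Genes were taken as log2 CPM and library measures as percentages. The ratio passed the critical value of 0.71 for 5 samples in 42 sets. No chance rate is given for this count. The sets share the same libraries, and many genes were named for their differences without Rat3789. The library labelled lung of Rat3789 stood apart in 37 of the 42 sets. It was the lowest of the 5 lungs, with gap ratios in brackets, among genes of lung epithelium in Sftpc (0.926), Sftpb (0.88), Sftpa1 (0.925), Sftpd (0.923), Ager (0.879), Scgb1a1 (0.817), Krt8 (0.874), Cldn18 (0.959), Pigr (0.973), Slc34a2 (0.92), Cyp4b1 (0.744) and Evpl (0.931). Among genes of mesenchyme and vessels it was lowest in Npnt (0.931), Itga8 (0.769), Tbx4 (0.91), Sema3c (0.92), Timp3 (0.778) and Icam1 (0.804). Among myeloid genes and chemokines it was lowest in Mmp12 (0.79), Krt79 (0.787), S100a9 (0.715), Mmp8 (0.717) and Cxcl3 (0.863). It was also lowest in Isg15 (0.793), Irf7 (0.734), Fgg (0.845), Ces1d (0.79), Gpc3 (0.718), Aldh1a1 (0.811), Fgfr3 (0.847), Defb4 (0.955) and Ly6i (0.872). It was the highest lung in Cpa3 (0.745), Pdgfrb (0.801), Dcn (0.886), Lum (0.857) and C4b (0.851). The lung of Rat3877 had the lowest mitochondrially encoded share of rat reads (0.771). The core of Rat3867 was the highest core in Itgax (0.926) and Ube2c (0.751), and that of Rat3869 in Tyrobp (0.786) and Hbb (0.926).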

How the results depend on the processing

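With all 5 lungs, the alternatives called between 3402 genes (without the lung of Rat3877) and 5180 (DESeq2), against 4452. With 4 lungs they called between 3860, again without the lung of Rat3877, and 5760 (no filter on low values), against 5098. Leaving out 1 library at a time gave 3402 to 5098 with 5 lungs and 3860 to 5369 with 4, and differences in the rat share of reads of 13.5 to 16.3 percentage points. Under scaling to total reads 67.4% of the calls with 5 lungs were higher in lung, against 54.5%, and 69.6% of those with 4, and the genes lower in lung without Rat3789 numbered 1515, against 2320. No result changed its direction with a call on both sides under any alternative. The paired fit, with the rat as a replicate block, uses the 4 rats that gave both tissues and drops the Rat3789 lung and the Rat3867 core. It called 5053 genes, 2770 higher and 2283 lower. The paired difference in rat share was 16.5 percentage points (exact p = 0.125, the smallest that 16 sign patterns allow). Apart from the genes given above, the replicate block changed the call of no named gene with 5 lungs, and with 4 it also added Acta2 and Col4a1. Of the named genes called with 5 lungs, limma-voom on the recovered reads lost 29, among them Sftpc, Ager, Scgb1a1, Npnt, Mmp8, Col4a3 and Tbx4. EdgeR lost 7 (Col4a1, Dcn, F13a1, Gpihbp1, Hbb, RT1-Bb and Tnn), DESeq2 lost 2 (Dcn and Tnn), and scaling to total reads lost 5 (Acta2, Gpihbp1, Hk1, Mki67 and RT1-Bb). With 4 lungs these losses were 1, 2, 2 and 1, and the causes were not tested. Calls were also gained with 5 lungs, 5 by DESeq2 (Cxcl3, Ednrb, Mmp9, Mrc1 and S100a9), 2 by edgeR (Cxcl3 and Ednrb) and 0 by limma-voom. The alternatives moved 151 of 1718 list counts with 5 lungs by more than 1.5 times, and 95 with 4. In genes with few core reads, such as Vcam1, depth and the pellet rate limit the fold that can be stated.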

Other observations

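Muscle genes varied widely among the libraries of both groups. Myh4, a fast skeletal muscle myosin, read 498, 52.5, 491, 1855 and 13.2 CPM in the cores, 747, 7.01, 24.2 and 3.08 in the 4 other lungs and 313 in the Rat3789 library. Ckm, the muscle creatine kinase, ran from 0.631 to 460.2 CPM in the cores and from 0.595 to 181 in the 4 other lungs, with 71.1 in the Rat3789 library. The skeletal actin Acta1 ran from 1.89 to 759.8 CPM in the cores and from 5.14 to 313 in the 4 other lungs, with 119 in the Rat3789 library. None of the 7 tested skeletal muscle genes was called by limma, limma-voom, edgeR or DESeq2 with 5 lungs or 4. At an unadjusted p under 0.05 limma found 0 with 5 lungs and 1 with 4. With 4 lungs, leaving out the lung of Rat3869 as well gave 2 called lower, among them Myh4 (-4.63, limma adjusted p = 0.0262), and leaving out the core of Rat3877 gave 1. Pooled over the 5 cores, the pellet rate would account for 117%, 103% and 112% of the reads of Myh4, Ckm and Acta1. The pooled figure does not describe single cores. Mouse reads, by which the rate is carried over, ran from 20050380 to 23803568 in the cores, while Myh4 ran from 13.2 to 1855 CPM. The source of the muscle reads was not tested. Adipocyte genes were high in 1 library: Adipoq, the fat hormone adiponectin, ran from 0.883 to 4.49 CPM in the cores and from 0.377 to 2.49 in the 4 other lungs, with 61.7 in the Rat3789 library. Plin1, which coats lipid droplets, ran from 0.788 to 2.07 CPM in the cores and from 0.161 to 1.01 in the 4 other lungs, with 26.1 in the Rat3789 library. The pellet rate would account for all core reads of both. Cd4, which rat macrophages carry as well as T cells, ran from 91.1 to 326 CPM in the cores and from 87.3 to 186 in the 4 other lungs, with 387 in the Rat3789 library. Cd8a, of cytotoxic T cells, ran from 1.82 to 7.57 CPM in the cores and from 3.94 to 8.02 in the 4 other lungs, with 5.52 in the Rat3789 library. Neither was called (limma adjusted p = 0.892 and 0.322 with 5 lungs, 0.383 and 0.38 with 4). Alox15, a lipoxygenase of eosinophils and macrophages, ran from 20.3 to 71.1 CPM in the cores and from 29.8 to 52.5 in the 4 other lungs, with 15.9 in the Rat3789 library (limma adjusted p = 0.73 with 5 lungs and 0.835 with 4).

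Beside the 5 tumor rims, the Rat3789 library lay below their range in Col1a1 (7722 CPM, rims 12737 to 28214). It lay inside it in Cd163 (1712, rims 864 to 2783) and above it in Lyve1 (823, rims 100.4 to 586). The cores of Rat3867 and Rat3877 differed from the others in vessel and matrix genes. They read 278 and 309.9 CPM in Cdh5, where the other cores read 57.1 to 138, and 1793 and 1922 CPM in Col1a1, where the others read 4780.4 to 6525. These 2 cores were the most alike pair of libraries in either group (chi-square of 5.70 per degree of freedom over genes).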
